A study of Mus musculus with 5 samples.

Results

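Chromatin immunoprecipitation followed by sequencing (ChIP-seq) with an antibody against TEAD gave 48571 peaks, out of 122868 peaks in the 4 deposited lists. The list was taken whole, as all rows of the authors' TEAD table. It came from 1 sample of 3T9MycER fibroblasts, immortalized embryonic mouse cells with MycER, in which Myc is joined to the ligand-binding part of the estrogen receptor. According to the labels 400 nM 4-hydroxytamoxifen (OHT) switched MycER on and 2 µg/ml doxycycline induced the activated mutant YAPS127A, and both agents were given to all 4 ChIP samples. The cells were described as quiescent and confluent. YAPS127A came from a virus that the cells had been infected with before drug selection, and whether a single clone was used is not given. The lists for Myc, YAP and RNA polymerase II (RNAPol2) are used below only as landmarks. Each is also 1 sample, fixed like TEAD with 1% formaldehyde except for YAP, which had a further crosslinker first.

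TEAD proteins are a small family of transcription factors that bind DNA through the TEA domain. They are largely without activating function of their own and serve as the platform through which the coactivators YAP and TAZ reach chromatin when Hippo signaling is low. In many adherent cell types much of this binding is known to fall at enhancers, away from promoters. RNAPol2 is found most densely at the starts of active genes. The distance to an RNAPol2 summit is thus a rough guide to promoter proximity that needs no gene annotation. The RNAPol2 list held 49650 peaks of up to 33324 bp, and which of them mark promoters was not tested. The antibody is labelled TEAD, without saying which family members it recognises. Peaks are given in mm9 coordinates, and genes and sequence content were not analysed here.

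The TEAD library held 31770727 tags and was compared by the authors' peak caller with one control library of 60189064 tags, which also served the other lists. Since each antibody had 1 sample, replicate error could not be measured and no p-value is given. The 95% intervals below cover counting error only, treat peaks as independent, and tags amplified by PCR are not independent molecules. The control level of a peak, its pileup divided by its fold enrichment, cannot fall below a genome-wide floor, and 43.0% of TEAD peaks lay within 5% of it. Its median on chromosomes 10, 15 and 19 together was 1.51 times the floor, and the highest median of any other chromosome was 1.20 times.

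Most TEAD peaks were low and narrow, with a long tail of high ones. Pileup, the number of extended ChIP tags stacked at the summit, ran from 13 to 351. Its median was 29 and its quartiles were 22 and 43. A pileup of 100 or more was reached by 2436 peaks, or 5.02% (4.82 to 5.21), and one of 200 or more by 303 peaks. Widths ran from 185 to 6485 bp with a median of 345 bp (343 to 347) and quartiles of 250 and 510 bp. The smallest width equals the fragment length that the caller estimated for this library, and 1650 peaks had exactly that width. Only 43 peaks were wider than 2000 bp. Few peaks lay near the calling threshold of 1e-05, since 183 had a −log10 p below 6, and 65.8% had a −log10 q of 10 or more (65.3 to 66.2).

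Higher peaks were wider. The peaks were split into 10 deciles of pileup, with ties kept together, so that a decile held between 4421 and 5871 peaks. Median width was 221 bp in the lowest decile, where pileups were 13 to 19, and 731 bp in the highest, where they were 73 to 351. Over all peaks Spearman's rho of pileup and width was 0.727, as a description across peaks of one library.

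**Figure D1:**
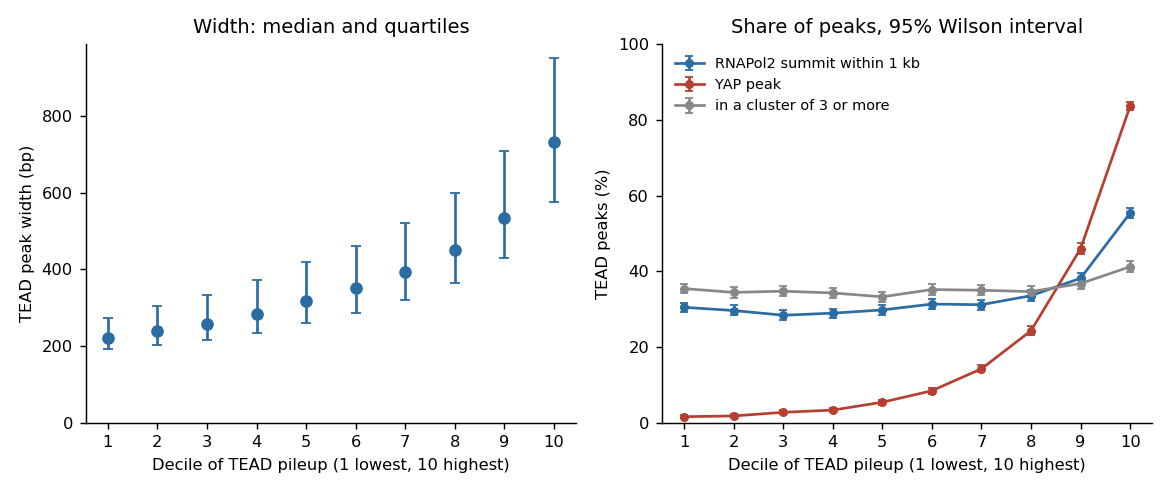
TEAD peaks by decile of pileup (horizontal axes, decile 10 the highest). Left, median peak width in bp with bars from the lower to the upper quartile, rising from 221 to 731 bp. Right, the percentage of TEAD peaks with a YAP peak, with an RNAPol2 summit within 1 kb or in a cluster of 3 or more summits, with 95% Wilson intervals; YAP rises over the whole range, and RNAPol2 mainly in the last deciles, from 33.6% in decile 8 to 55.4% in decile 10.

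Of all TEAD peaks, 18.7% overlapped a YAP peak (18.4 to 19.1) and 22.5% a Myc peak (22.1 to 22.9). The strongest individual sites were held by YAP as well. By fold enrichment the first was the peak on chromosome 13 from 60466137 to 60467205, with a pileup of 320 and a fold of 101.81, whose summit lay 4 bp from a YAP summit and 56 bp from a Myc summit. It was followed by chromosome 2 from 131831548 to 131833098 (pileup 325, fold 99.65) and by chromosome 19 from 8776621 to 8778425 (pileup 319, fold 99.59). The remaining sites were both on chromosome 9, at 63743983 to 63744939 (pileup 307, fold 97.67) and at 77892872 to 77893548 (pileup 304, fold 96.72). All 5 overlapped YAP, Myc and RNAPol2 peaks, and their YAP summits lay 3 to 28 bp away. They belong to the highest decile of pileup, where 83.6% of TEAD peaks overlapped YAP and 37.9% overlapped Myc. In that decile 55.4% lay within 1 kb of an RNAPol2 summit.

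Ranking by pileup brought in sites of another kind. The highest pileup of all, 351, was on chromosome 17 from 39979912 to 39983886, where the fold enrichment was 2.3 because the control level was 48.6 times the floor. The next peak downstream, from 39983964 to 39985800, had a pileup of 337 and a fold of 2.03. Both are thus sites where control and ChIP were high together. Between them in rank stood 2 peaks on chromosome 15, from 27711806 to 27713383 (pileup 342, fold 50.03) and from 37684803 to 37686145 (pileup 339, fold 53.52), where the control was 2.18 and 2.02 times the floor. The fifth was the peak on chromosome 2 named above.

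By width, the first sites were again ones of high control. The 2 widest peaks covered 6485 and 4740 bp of the mitochondrial sequence, with folds of 3.02 and 3.32 over a control 30.9 and 28.6 times the floor, and the third was the first chromosome 17 peak, at 3975 bp. The widest peak over a control near the floor lay on chromosome 6 from 90455712 to 90459593. It measured 3882 bp, with a pileup of 286 and a fold of 90.99, and it had no other TEAD summit within 10 kb. The next, on chromosome 15 from 11758016 to 11761274, measured 3259 bp with a pileup of 213 over a control 2.02 times the floor.

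TEAD summits were bunched. The median spacing of successive summits on a chromosome was 15905 bp (15617 to 16182), while the mean was 52952 bp. Among summits with a −log10 q of 10 or more the median was 25243 bp. Quartiles were 4462 and 42119 bp. A spacing of at most 1 kb was found in 4421 of 48544 cases, or 9.11% (8.85 to 9.37), and one of at most 10 kb in 39.3% (38.9 to 39.8). At the other end, 311 spacings exceeded 1 Mb. On a log scale the spacings had a broad maximum between 17783 and 31623 bp, with 7306 of them, and a shoulder between 562 and 1000 bp, with 2787. Only 1179 spacings were 500 bp or less, and 13 were shorter than the estimated fragment of 185 bp.

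Summits were chained into clusters wherever successive ones lay at most 10 kb apart. Of all summits, 19085 or 39.3% were isolated, 12248 stood in 6124 pairs, and 17238 stood in 4270 clusters of 3 or more. The last share was 35.5% (35.1 to 35.9). It depended on the linking distance, being 19.3% at 5 kb and 58.0% at 20 kb, and it was 22.4% among summits with a −log10 q of 10 or more. The YAP and Myc lists, which are shorter, had 11.9% and 13.4% of their summits in such clusters. Clusters of 3 or more had a median span of 9.75 kb, and a median of 42.3% of their summed pileup came from their highest summit. There were 66 clusters of 10 or more summits, with 856 summits in all, and their spans ran from 15.4 to 86.3 kb.

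**Figure D2:**
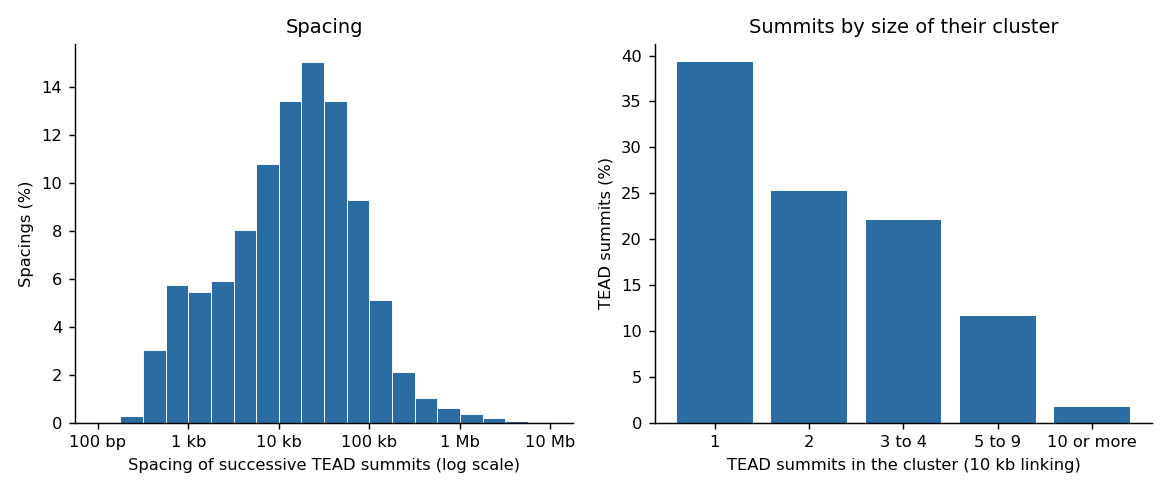
Left, the percentage of spacings between successive TEAD summits (vertical axis) by their length (horizontal axis, log scale, bins of 0.25 log10 units), with the maximum between 17783 and 31623 bp and a shoulder between 562 and 1000 bp. Right, the percentage of TEAD summits by the number of summits in their cluster, with successive summits linked up to 10 kb; 39.3% are isolated and 1.76% stand in clusters of 10 or more.

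The largest cluster lay on chromosome 9 between summits at 102616382 and 102692913, with 30 summits in 76.5 kb. Its pileups ran from 15 to 298 with a median of 36, and the 4 highest were 298, 248, 218 and 206. Of the 30 peaks, 14 overlapped YAP, 7 overlapped Myc and 20 overlapped RNAPol2, where the shares over all TEAD peaks were 18.7%, 22.5% and 33.9%. The Myc count was thus near the share of the whole list. The RNAPol2 count owed much to 1 wide RNAPol2 peak, from 102617410 to 102640334. This peak of 22925 bp held 15 of the 30 TEAD summits, and the whole cluster spanned 5 RNAPol2 summits. High and low TEAD summits stood side by side. The highest summit gave 14.5% of the summed pileup of the cluster.

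The second cluster, on chromosome 6 from 52108921 to 52190512, held 29 summits with pileups from 15 to 147. All 29 overlapped an RNAPol2 peak, and there were 30 RNAPol2 summits within its span. YAP was found at 5 of its peaks and Myc at 12. The third, on chromosome 13 from 23609466 to 23678723, held 27 summits, of which 2 had YAP, 9 had Myc and 22 had RNAPol2. Its highest pileup was 106. YAP was called at fewer of the peaks of these 2 clusters than in the first. In the second its share was near the 18.7% of all TEAD peaks. Their median pileups were 25 and 30, against 36 in the first cluster, and the part of height was not tested.

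The fourth, on chromosome 9 from 41387847 to 41425655, placed 22 summits in 37.8 kb, a mean spacing of 1800 bp. The fifth was the one of these 5 without RNAPol2. It lay on chromosome 15 from 6934800 to 7021088 with 21 summits, and no RNAPol2 summit fell within its 86.3 kb. YAP was found at 7 of its peaks and Myc at 1, and its pileups ran from 21 to 138. The control level there was 1.54 times the floor. Among all 66 clusters of 10 or more summits, 5 had no RNAPol2 summit inside and 64 had at least 1 YAP peak. Of the 4270 clusters of 3 or more, 38.3% had no RNAPol2 summit inside and 58.4% had a YAP peak. Larger clusters have more peaks that could carry one, so that these counts say nothing particular about them.

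Being clustered went with little difference in height. The median pileup was 29 at isolated summits (28 to 29) and 29 in clusters of 3 or more (29 to 30). The upper tail was fuller in clusters, where 6.33% of summits had a pileup of 100 or more (5.98 to 6.70), against 3.92% of isolated summits (3.65 to 4.20). The means were 41.5 and 37.9. With fold enrichment as height the clusters had the lower median, by 0.06 (interval of the difference −0.33 to −0.03). Among summits with a −log10 q of 10 or more the clusters had the higher median pileup, by 2 (2 to 3).

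YAP was called more often at clustered summits. A YAP peak overlapped 15.5% of isolated TEAD peaks (15.02 to 16.05), 18.2% of those in pairs (17.6 to 18.9), 22.7% of those in clusters of 3 or more (22.1 to 23.3) and 28.6% of those in clusters of 10 or more (25.7 to 31.7). Clusters of 3 or more exceeded isolated peaks by 7.15 percentage points (6.34 to 7.96). The difference had the same sign in each of the 10 deciles of TEAD pileup. It was smallest, 1.41 points, in decile 5, where 6.33% of clustered peaks (5.21 to 7.66) and 4.91% of isolated ones (4.03 to 5.98) had YAP. It was largest, 11.4 points, in decile 9, where the shares were 52.2% (49.8 to 54.5) and 40.7% (38.5 to 43.0). These shares rest on overlap, by which a wide YAP peak can count at several close TEAD peaks. With YAP summits within 250 bp the difference over all peaks was 6.32 points (5.53 to 7.11), and it was not split by decile. Clustered summits were also nearer to RNAPol2: 41.3% had an RNAPol2 summit within 1 kb (40.6 to 42.1), against 25.3% of isolated ones (24.7 to 26.0). The median control level was 1.06 times the floor at isolated summits and 1.21 times in clusters of 10 or more, and its part in these results was not tested.

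Density varied 6-fold between chromosomes. Chromosome lengths were taken as the span between the outermost summits of the 4 lists. Chromosome 15 had 40.1 TEAD summits per Mb (38.9 to 41.4) and chromosome 19 had 36.6 (35.1 to 38.2), followed by chromosome 11 with 28.4 (27.5 to 29.4), chromosome 9 with 25.4 (24.5 to 26.3) and chromosome 2 with 24.0 (23.3 to 24.7). The sparsest were the X chromosome with 6.56 (6.17 to 6.97), chromosome 12 with 9.73 (9.17 to 10.3) and chromosome 14 with 11.1 (10.5 to 11.7). Chromosome 15 therefore exceeded the X chromosome by a factor of 6.12 (5.72 to 6.55). It exceeded chromosome 12, the sparsest autosome, by a factor of 4.13.

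The control level was in general higher on denser chromosomes, with a Spearman's rho of 0.682 between summits per Mb and control level over the 20 chromosomes, as a description within one library pair. It was 1.58 times the floor on chromosome 15, 1.46 times on chromosome 10 and 1.34 times on chromosome 19. Chromosome 10 had 17.5 TEAD summits per Mb (16.8 to 18.3). Without these 3 chromosomes, the factor between the densest, chromosome 11, and the X chromosome was 4.33 (4.04 to 4.64). Summits with a fold enrichment of 10 or more, which is relative to the control, kept chromosomes 19 and 15 at the top with 10.7 and 9.85 per Mb, ahead of chromosome 11 with 8.74. The X chromosome had 1.79. The part of the control level in the differences of density between chromosomes was not tested.

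**Figure D3:**
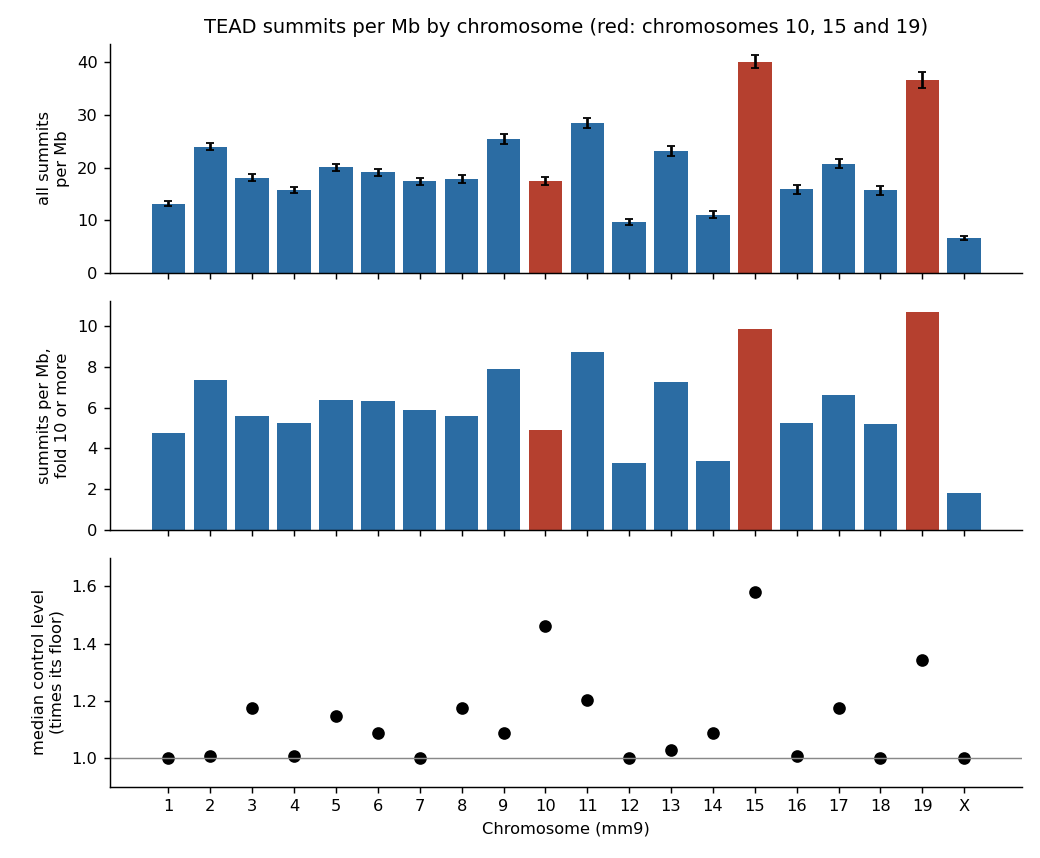
For each mouse chromosome in mm9 (horizontal axis), TEAD summits per Mb with exact 95% Poisson intervals (upper bars), TEAD summits per Mb with a fold enrichment of 10 or more (middle bars) and the median control level at TEAD peaks in multiples of its floor (lower points). Chromosomes 15 and 19 are highest in both bar charts, and chromosomes 15, 10 and 19 (red) have the highest control levels, 1.58, 1.46 and 1.34.

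Spacing was shortest on the densest chromosomes. The median spacing was 8788 bp on chromosome 15 (8331 to 9401) and 10150 bp on chromosome 19 (9339 to 11004), and 30072 bp on the X chromosome (25805 to 35832). Clusters of 3 or more held 54.5% of the summits of chromosome 15 (52.9 to 56.0), 49.5% on chromosome 19 (47.4 to 51.6) and 18.7% on chromosome 12 (16.6 to 21.1). Chromosomes of like density could differ. With 17.5 summits per Mb, chromosome 10 had a median spacing of 22171 bp (20538 to 23873) and 25.5% of summits in clusters (23.7 to 27.3). Chromosome 7, with 17.4 per Mb, had 16214 bp (15101 to 17367) and 33.2% (31.4 to 35.01). Chromosomes 15, 19 and 9 held 13, 11 and 11 of the 66 clusters of 10 or more, and chromosome 10 held 0 of them. Proximity to RNAPol2 followed another order. The share of TEAD summits within 1 kb of an RNAPol2 summit was highest on chromosome 7, at 43.2% (41.3 to 45.1), and was 31.1% on chromosome 15 (29.7 to 32.6).

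At a finer scale, summits were spread over 2580 bins of 1 Mb with a median of 16 per bin and quartiles of 4 and 28. The 535 fullest bins, 20.7% of all, held 50% of the summits. No TEAD summit was found in 334 bins, of which 316 had no RNAPol2 summit either. The fullest bin, on chromosome 15 from 42 to 43 Mb, held 108 TEAD summits. It was followed by 11 to 12 Mb of the same chromosome with 100, chromosome 19 from 5 to 6 Mb with 97, chromosome 15 from 43 to 44 Mb with 91 and chromosome 19 from 46 to 47 Mb with 89. A bin on chromosome 15 from 55 to 56 Mb had the same count as the last and a lower summed pileup. The control level in these 6 bins ran from 1.25 to 1.71 times the floor.

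TEAD and RNAPol2 were dense in the same bins. Spearman's rho of their counts over the 2580 bins was 0.795, and it was 0.798 over the 2293 bins outside chromosomes 10, 15 and 19. These are descriptions, since neighbouring bins are not independent and both lists were called against one control. The 2580 bins include the 316 that were empty in both lists, and whether tags could map there was not tested. There were exceptions in one direction mainly: 306 bins had TEAD summits and no RNAPol2 summit, against 18 bins with RNAPol2 and no TEAD. The fullest bin without RNAPol2 was on chromosome 16 from 86 to 87 Mb, singled out after the values were seen. It held 52 TEAD summits with a median pileup of 27.5, and 8 YAP summits.

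The longest stretch without a TEAD summit measured 9.48 Mb, on the X chromosome from 23954375 to 33434412, and held 2 RNAPol2 summits. The next, of 7.87 Mb, was also on the X chromosome, from 118346255 to 126219102. Stretches of 7.65 Mb on chromosome 7 (39057814 to 46704749), 6.99 Mb on chromosome 3 (41878616 to 48872941) and 6.33 Mb on chromosome 14 (87967113 to 94297878) followed. The last 2 held no summit of RNAPol2, YAP or Myc. Whether tags could map throughout these stretches was not tested.

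On a log scale, the distance from a TEAD summit to the nearest RNAPol2 summit had a near and a far maximum, called groups below. The median distance was 9963 bp (9578 to 10410). With the stronger 50% of RNAPol2 peaks as landmarks it was 18202 bp, and with a −log10 q of 10 or more in both lists it was 14506 bp. An RNAPol2 summit lay within 100 bp of 8.58% of TEAD summits (8.33 to 8.83), within 1 kb of 33.6% (33.2 to 34.0) and within 10 kb of 50.04% (49.6 to 50.5). It was more than 100 kb away for 18.5% (18.1 to 18.8). In bins of equal width on a log scale, the near group peaked between 100 and 316 bp, with 3581 and 3624 summits per bin. The counts fell to 1651 summits between 1778 and 3162 bp. They rose again to a broad maximum from 17783 to 100000 bp, where each bin held 3970 to 4045 summits. These bins widen in bp with distance. Whether the far maximum differs from that of positions placed at random was not tested.

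Seen from RNAPol2, 31.4% of its 49650 summits had a TEAD summit within 1 kb (31.0 to 31.8). For comparison, 47.0% of YAP summits (46.1 to 48.0) and 85.5% of Myc summits (84.9 to 86.1) lay within 1 kb of an RNAPol2 summit, with median distances of 1656 and 146 bp. These lists differ in length, and YAP in fixation, and no replicate spread is available for them. Overlap of peaks gave nearly the share for TEAD that distance gave, 33.9% (33.5 to 34.3). The sets differed somewhat, since 1292 TEAD peaks overlapped an RNAPol2 peak whose closest summit was more than 1 kb away and 1153 had a summit within 1 kb and no overlap.

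The highest TEAD peaks most often lay close to RNAPol2. In the lowest decile of pileup 30.5% of summits lay within 1 kb of an RNAPol2 summit, in the fifth 29.8%, in the ninth 38.1% and in the highest 55.4%. The highest decile exceeded the lowest by 24.9 percentage points (23.1 to 26.7), and by 23.3 points with fold enrichment as height. Median distance was 12130 bp in the lowest decile, 13431 bp in the fifth, 7072.5 bp in the ninth and 451 bp in the highest. Most of the fall thus lay in the last decile, and Spearman's rho of pileup and distance over all peaks was −0.116. In the highest decile the near group peaked between 100 and 178 bp, with 16.2% of summits. In the lowest it was flat, with 6.24%, 6.61% and 6.85% in successive log bins from 178 to 1000 bp.

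**Figure D4:**
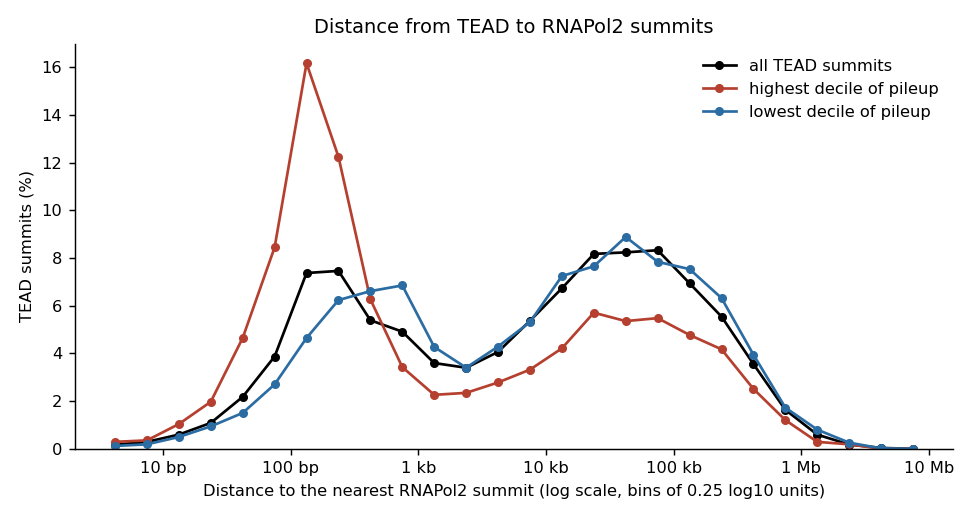
Percentage of TEAD summits (vertical axis) by the distance to the nearest RNAPol2 summit (horizontal axis, log scale, bins of 0.25 log10 units) for all TEAD summits and for the highest and lowest deciles of pileup. On this log scale all 3 curves have a near and a far maximum, the near one of the lowest decile being flat. Between 100 and 178 bp the highest decile reaches 16.2%.

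High TEAD peaks were also found far from RNAPol2. Of the highest decile, 13.1% lay over 100 kb from any RNAPol2 summit, against 20.6% of the lowest. The highest of them lay on chromosome 2 from 50542490 to 50543274, with a pileup of 285, a fold of 59.99 and the nearest RNAPol2 summit 190584 bp away. The next lay on chromosome 15 from 74917169 to 74917508, with a pileup of 268. Separate sites on chromosome 13, at 25731719 to 25732385 and at 118198601 to 118199224, had pileups of 257 and 251. One on chromosome 5, at 12639034 to 12640053, had a pileup of 252. The fifth place was a tie, since a peak on chromosome 9 at 73320133 to 73320852 also had a pileup of 251 and a fold of 79.86. The site on chromosome 15 had a fold of 1.73 over a control 49.3 times the floor. The others had folds of 59.99 to 80.18. Each of these sites overlapped a YAP peak, and of them only the one on chromosome 15 overlapped Myc. Most TEAD peaks this far from RNAPol2 lacked Myc, which overlapped 2.36% of them between 100 and 500 kb and 1.73% beyond 500 kb. Of all TEAD peaks of the highest decile over 100 kb from RNAPol2, 82.8% overlapped YAP.

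Within 100 bp of RNAPol2, the highest TEAD summits reached a pileup of 311 at 2 sites, one on chromosome 9 at 67055612 to 67056893 and one on chromosome 11 at 59272231 to 59273082. A pileup of 304 followed at the chromosome 9 site of fold 96.72 given above, on chromosome 11 at 120113548 to 120114927, and on chromosome 15 at 11723973 to 11725178. All 5 overlapped YAP, with summits 1 to 29 bp apart. Of all TEAD peaks of the highest decile within 1 kb of RNAPol2, 87.0% overlapped YAP. The first of the 5 sites had its closest Myc summit 103813 bp away, and the other 4 overlapped Myc.

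Other readouts changed along the distance in different ways. Median TEAD pileup was 34 within 100 bp of RNAPol2, 35 between 100 and 250 bp and 26 between 500 bp and 1 kb, and it was 27 to 29 in all classes beyond 1 kb. Myc overlapped 63.2% of TEAD peaks between 100 and 250 bp (62.0 to 64.4) and 20.2% between 1 and 2 kb, and its share fell further at each step to 1.73% beyond 500 kb (1.18 to 2.55). YAP overlapped 33.2% of TEAD peaks within 100 bp (31.8 to 34.7) and 15.5% between 1 and 2 kb (14.1 to 17.2). Beyond that its share stayed between 13.5% and 14.99% up to 500 kb, and was 11.4% further out (9.83 to 13.1).

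Among TEAD peaks of like height the YAP share was again higher near RNAPol2. In decile 6 of pileup YAP was found at 12.7% of TEAD peaks within 1 kb of an RNAPol2 summit (11.1 to 14.5), at 6.93% between 1 and 100 kb (5.97 to 8.04) and at 5.30% over 100 kb away (3.96 to 7.06). In the highest decile the shares were 87.0% (85.6 to 88.2), 78.0% (75.9 to 80.0) and 82.8% (79.6 to 85.5). The share within 1 kb exceeded the share over 100 kb away in each of the 10 deciles, by 1.08 to 10.2 points. The order of the other 2 classes changed, with the farthest class higher in deciles 7, 9 and 10.

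Clustering of TEAD was most frequent just outside the near group. With 10 kb linking, 40.7% of summits within 100 bp of RNAPol2 stood in clusters of 3 or more (39.2 to 42.2), 63.3% between 1 and 2 kb (61.2 to 65.4) and 13.2% beyond 500 kb (11.5 to 15.01). The maximum between 1 and 2 kb was found with 5 kb linking (49.4%) and 20 kb linking (79.5%) as well. The steep drop beyond it moved with the linking distance. With 5 kb linking the share fell from 43.9% between 2 and 5 kb to 17.3% between 5 and 10 kb, with 10 kb linking from 57.8% to 29.6% at 10 kb, and with 20 kb linking from 74.2% to 46.9% at 20 kb.

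**Figure D5:**
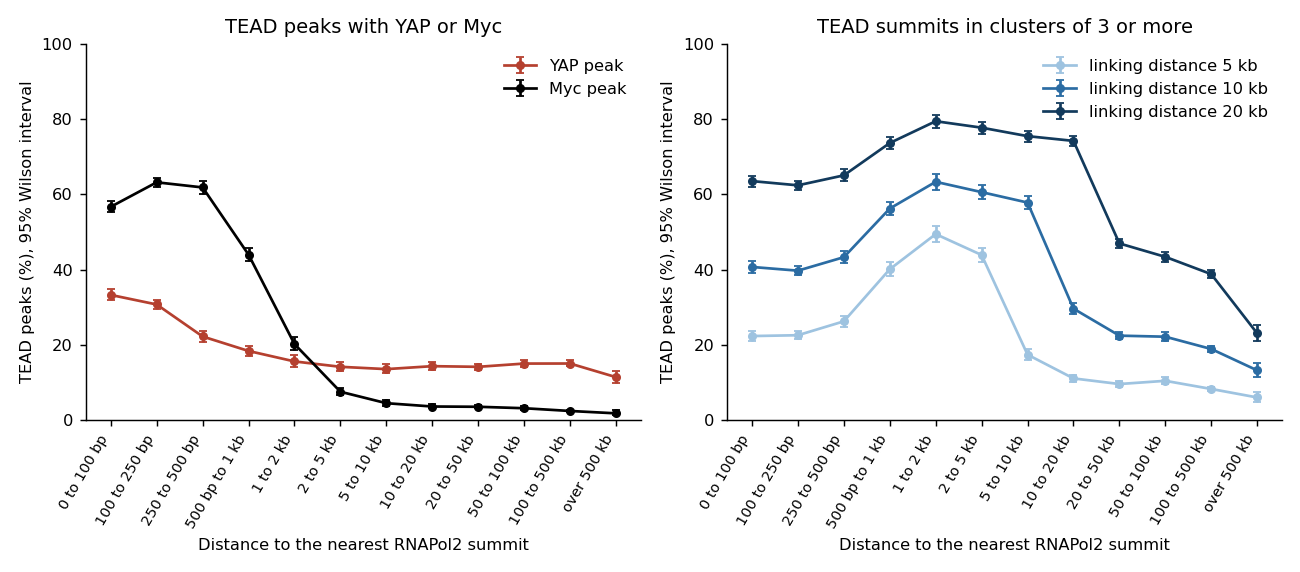
Percentage of TEAD peaks (vertical axes, with 95% Wilson intervals) by distance to the nearest RNAPol2 summit (horizontal axes). Left, TEAD peaks that overlap a YAP or a Myc peak; Myc falls from 63.2% between 100 and 250 bp to 1.73% beyond 500 kb, and YAP levels off near 14% after 1 kb. Right, TEAD summits in clusters of 3 or more for linking distances of 5, 10 and 20 kb, each with its maximum between 1 and 2 kb.

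Wide RNAPol2 peaks held more TEAD summits than narrow ones. Of the 49650 RNAPol2 peaks, 37226 held no TEAD summit, 10580 held 1 and 1844 held 2 or more. In the widest decile, from 1866 to 33324 bp, 20.7% held 2 or more (19.6 to 21.8). The mean number of TEAD summits per RNAPol2 peak rose from 0.0456 in the narrowest decile to 0.805 in the widest. Per kb of RNAPol2 peak, however, the density was highest in decile 8, at 0.460 summits, and was 0.228 in the widest. The RNAPol2 peak with most TEAD summits lay on chromosome 9 from 41387756 to 41404886, within the fourth cluster named above, and held 17 of them in 17131 bp.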

How the data were processed

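The data were 4 peak lists, 1 per antibody, deposited for 5 samples; no list of the input sample was used. Per the submitters' processing notes, reads were handled with BWA 0.6.2, SAMtools and MACS2 2.0.9 in the mm9 build. Each list was called by the authors on 1 ChIP sample, per the file headers, at a p-value cutoff of 1e-05, with 51 bp tags, at most 2 tags per position, the larger library scaled towards the smaller, and a local background from 1000 and 10000 bp of one control library. The deposited pileup is the signal of extended tags at the summit, and the deposited fold enrichment is its ratio to the local background. The deposited −log10 p and −log10 q values are the caller's.

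From these, spacings, clusters (successive summits linked up to 10 kb), bins of 1 Mb and distances between summits were computed with Python 3.11.15 (scipy 1.17.1, pandas 2.3.3, numpy 2.4.6) and drawn with matplotlib 3.10.9. Spacing, clustering and distance routines were first tested on simulated data. Shares have Wilson intervals, differences of shares Newcombe intervals, medians order-statistic intervals and densities exact Poisson intervals, all at 95%. Differences of medians have the extremes of the intervals of both medians, and ratios of densities a Wilson interval of the pooled count. Peaks overlapped when they shared at least 1 bp. No test between samples was possible with 1 sample per antibody. Regions were named by rule: the 5 peaks of highest pileup, highest fold enrichment and greatest width, the 5 largest clusters, fullest bins and longest stretches without a summit, and the 5 highest summits over 100 kb from and within 100 bp of RNAPol2. The peak list, measures and rules were chosen with earlier results of these data known. The tables of gene positions are of another build (GRCm38.p6) than the files and were not used. Alternatives were a −log10 q of at least 10, leaving out sequences or chromosomes, peak midpoints, linking distances of 5 and 20 kb, fold enrichment as height, peak overlap, the stronger 50% of RNAPol2 peaks and YAP summits within 250 bp. Chosen after seeing the data were a control level of at most 5 times the floor, autosomes only and a fold enrichment of at least 10.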

Additional observations from a re-analysis of the deposited data

How the results depend on the processing

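No paired analysis was possible because there was 1 sample per antibody, and no replicate could be left out. Of 58 recomputed values, 38 stayed within the counting interval of the reported value and 20 moved outside it. Where a reported difference had a direction it was kept. The reported difference in median pileup between clusters and isolated summits was 0, and its alternatives went in both directions.

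With a −log10 q of at least 10 in every list, median pileup was 37, median width 426 bp, median spacing 25243 bp, the share in clusters of 3 or more 22.4%, the share within 1 kb of RNAPol2 30.5%, the median distance to RNAPol2 14506 bp, the difference in YAP share between clusters and isolated peaks 6.18 points and the ratio of densities 6.78. Without chromosomes 10, 15 and 19, median pileup was 28, median spacing 17071 bp, the share in clusters 33.4%, the difference in YAP share 5.79 points and the ratio of densities 4.33. The ratio was 4.13 for autosomes only. The share in clusters was 19.3% with 5 kb linking and 58.0% with 20 kb linking. With the stronger 50% of RNAPol2 peaks, 27.0% of TEAD summits lay within 1 kb and the median distance was 18202 bp. With YAP summits within 250 bp the difference in YAP share was 6.32 points. With fold enrichment as height, clusters and isolated summits differed in median by −0.06, in units of fold and not of pileup. With a −log10 q of at least 10 their median pileups differed by 2 in the other direction. Leaving out the 42 peaks with a control level over 5 times the floor moved none of the 10 results outside its interval. Shallower true sites than the lowest pileup of 13 cannot be seen at this depth.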

Other observations

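Heights of neighbouring TEAD summits were nearly unrelated. For successive summits at most 1 kb apart, Spearman's rho of their pileups was −0.01 over 4421 pairs. It was 0.05 over 14671 pairs more than 1 and up to 10 kb apart, 0.04 over 24853 pairs more than 10 and up to 100 kb apart and 0.02 over 4599 pairs farther apart. Pairs share summits and one library, so that these values are descriptions.

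A control level over 5 times the floor was found at 42 of the 48571 TEAD peaks. The highest, 56.2 times, was on chromosome 9 from 35112742 to 35113164, where a pileup of 291 corresponded to a fold of 1.65. Of the 10 peaks of highest control level, 9 overlapped YAP and 9 overlapped Myc, against 18.7% and 22.5% of all TEAD peaks. Their pileups were 216 to 351, in the highest decile, where 83.6% of TEAD peaks overlapped YAP and 37.9% overlapped Myc. The YAP count was thus near the share of peaks of like pileup, while the Myc count was above it. These 10 peaks were unlike that decile in enrichment, with folds of 1.54 to 2.3 against its median of 25.89. On unplaced and mitochondrial sequences there were 39 TEAD peaks, of which 17 were on an unplaced sequence of chromosome 9 with pileups of 16 to 107 and 3 were mitochondrial with pileups of 231 to 298 and folds of 3.02 to 3.32.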
